A study of Drosophila melanogaster with 6 samples.

Results

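A set of 97 genes, 34 of them with a gene name and 15 of these in lists of testis or germline genes, was high in SF1-IR replicate 2 and WT replicate 1 and low in the other replicate of each of these genotypes. The genes were chosen on that pattern from mRNA-Seq of indirect flight muscle (IFM), the fibrillar muscle that powers flight. For each gene, the counts of its exon bins were summed and scaled by the library total to CPM, the usual depth-scaled count, and differences were taken on the log2(CPM + 0.5) scale. A gene was a member where its mean count over the 6 libraries was at least 50, where WT replicate 1 exceeded WT replicate 2 by 3 or more, and where SF1-IR replicate 2 exceeded SF1-IR replicate 1 by 3 or more. Of the 16428 genes with exon bins, 9173 reached the mean count, and the 97 members were 1.06% of these. The differences between replicates of SF1-IR and of WT are therefore a property of the selection and were not tested.

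IFM was dissected at 72 h after puparium formation (APF) from flies kept at 27 °C, and muscle from about 100 animals was combined for each poly A-selected library. SF1-IR carried Mef2-Gal4 with the SF1-RNAi hairpin GD5176, Hrb87F-IR carried Mef2-Gal4 with the Hrb87F-RNAi hairpin TRiP.JF01757, and WT carried Mef2-Gal4 alone from a cross to w1118, with 2 libraries each. Mef2-Gal4 is active in all muscles, so neither knockdown was limited to IFM, each knockdown rests on a single hairpin, and the sex of the pooled flies is not given in the sources used here. Replicates are separate samples, but nothing states how they were separated, so p-values measure only the spread between these samples.

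Spermatogenesis in Drosophila proceeds from germline stem cells through spermatocytes, which transcribe most of the genes needed later, to round spermatids that elongate into sperm. During elongation the mitochondria fuse and stretch along the axoneme, the microtubule core of the tail, while histones in the nucleus give way to protamine-like proteins. Many of the proteins involved are testis-specific copies of genes that are used in every tissue, such as tubulins, proteasome subunits and mitochondrial enzymes, and many others have no known role. The testis lies in the abdomen, apart from the flight muscle of the thorax.

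The libraries held between 63393347 and 72057010 exon-bin counts. The 10 flight muscle genes examined, among them Act88F, fln and Mhc, summed to between 167807 and 215062 CPM in every library. Hrb87F, the target of one hairpin, stood at 14.4 and 18.9 CPM in Hrb87F-IR, against 27.5 and 25.7 CPM in WT. SF1 stood at 28.3 and 22.1 CPM in the libraries labelled SF1-IR, against 22.7 and 25.3 CPM in WT, so the level of SF1 did not separate those libraries from WT. Any reads from a hairpin itself would be counted with its target and were not separated here.

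Summed over the 97 members, the module took 66.2 CPM in SF1-IR replicate 1 (95% Wilson interval 64.2 to 68.2) and 1371 CPM in SF1-IR replicate 2 (1362 to 1380). It took 48.9 CPM in Hrb87F-IR replicate 1 (47.3 to 50.6) and 312.7 CPM in Hrb87F-IR replicate 2 (308.6 to 316.9). It took 1397 CPM in WT replicate 1 (1388 to 1405) and 42.1 CPM in WT replicate 2 (40.5 to 43.7). The 6 libraries thus fell into a high pair made of 1 SF1-IR and 1 WT library, an intermediate Hrb87F-IR library, and a low library of each genotype. The intervals cover counting error only, and a read that spans several exon bins is counted in each of them. In SF1-IR replicate 2 the exon-bin counts totalled 69067897, against 31484532 in the deposited counts per gene. CG5089, with 1 exon bin, had 26.5 and 29.0 CPM there, so the excess was not limited to reads that span several bins. The intervals are therefore narrower than independent molecules would give. In a bulk sample, fewer cells of a type and less RNA per cell cannot be told apart. Even at its highest the module was a small share of the RNA, at 0.137% of the counts in SF1-IR replicate 2, 0.0313% in Hrb87F-IR replicate 2 and 0.140% in WT replicate 1.

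**Figure D1:**
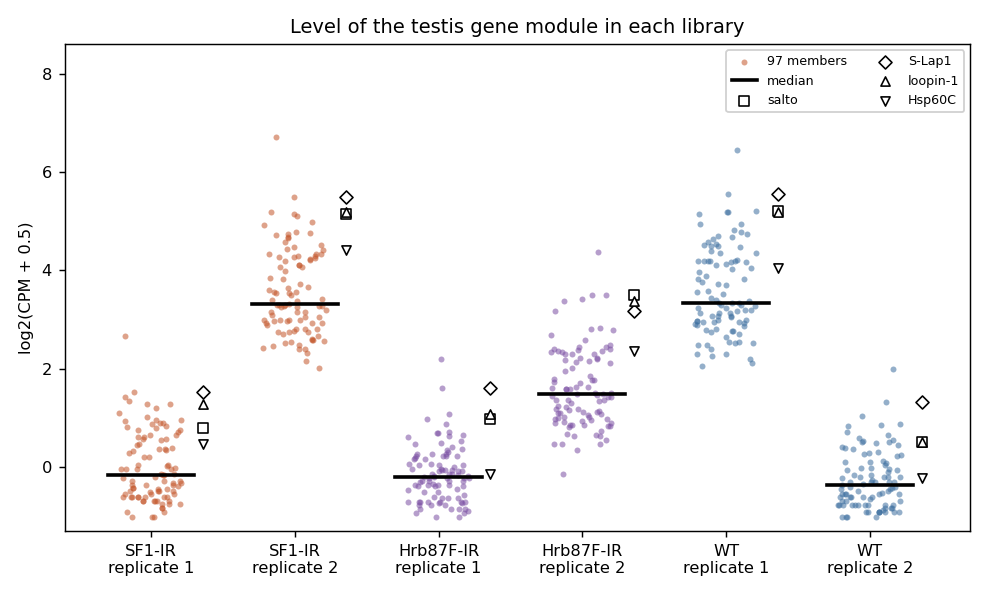
Each point is the level of 1 of the 97 members, as log2(CPM + 0.5), in the library named below it, black bars mark medians, and open symbols show the marker genes salto, S-Lap1, loopin-1 and Hsp60C. SF1-IR replicate 2 and WT replicate 1 stand highest, with median levels of 9.41 and 9.67 CPM, Hrb87F-IR replicate 2 is intermediate with 2.30 CPM, and the other libraries have medians between 0.280 and 0.394 CPM.

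The median member stood at 0.394 and 9.41 CPM in SF1-IR replicates 1 and 2, 0.371 and 2.30 CPM in Hrb87F-IR replicates 1 and 2, and 9.67 and 0.280 CPM in WT replicates 1 and 2. A level above 5 CPM was reached by 90 members in SF1-IR replicate 2, 12 in Hrb87F-IR replicate 2 and 90 in WT replicate 1, but by 1 member in SF1-IR replicate 1 and by 0 in Hrb87F-IR replicate 1 and WT replicate 2. Most members were still detected in the low libraries. At least 10 counts were found for 81 members in SF1-IR replicate 1, 76 in Hrb87F-IR replicate 1 and 67 in WT replicate 2. In these libraries 3, 2 and 4 members had 0 counts, which allows a level of up to 0.0473, 0.0445 and 0.0466 CPM for each such gene. These limits take each count as 1 molecule and are too low where a molecule was counted more than once.

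The members differed by a median of 3.48 (3.002 to 4.44) between SF1-IR replicates 2 and 1, and by a median of 3.83 (3.03 to 5.30) between WT replicates 1 and 2, on the log2(CPM + 0.5) scale. A difference of 3 or more was found in 1.37% of the 9173 genes for SF1-IR and in 1.74% for WT, which stand beside the members as a description because both differences chose them. The replicates were lopsided, since 126 genes exceeded 3 in that direction in SF1-IR and 0 fell to -3 or below (0.0%), and 160 genes exceeded 3 in WT and 1 fell to -3 or below (0.0109%). At the edge of the selection, Ubc87F, Hsp60B and Dnaaf6 were just inside, with a smaller difference of 3.01, 3.01 and 3.002. CG30376, Gpo3 and CG13700 were just outside with 2.996, 2.99 and 2.99, so the edge falls within a continuous cloud of genes, as the plot of replicate differences shows.

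**Figure D2:**
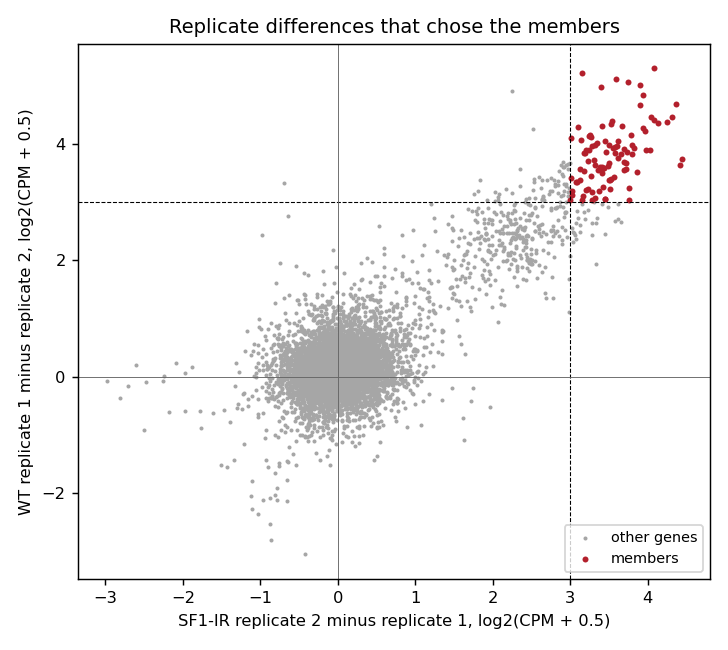
Each point is a gene with a mean count of at least 50, the x axis gives SF1-IR replicate 2 minus replicate 1 and the y axis WT replicate 1 minus replicate 2, both as log2(CPM + 0.5), and dashed lines mark the difference of 3 used to choose the 97 members (red). The members are the upper right end of a cloud of genes that extends below the lines.

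The best represented function was that of the sperm leucyl aminopeptidases, enzyme-related proteins that are abundant in sperm. Members included S-Lap1, S-Lap2, S-Lap3, S-Lap4, S-Lap7, S-Lap8 and loopin-1, 7 of the 8 genes of that list that were measured. Together the 7 genes summed to 10.6 and 188.7 CPM in SF1-IR replicates 1 and 2, 7.61 and 44.9 CPM in Hrb87F-IR replicates 1 and 2, and 197.9 and 6.60 CPM in WT replicates 1 and 2. The order of the high and low SF1-IR and WT libraries was set by the selection, and the Hrb87F-IR values were not. S-Lap5, the measured gene of the list that was not a member, had the same order at a lower level, with 0.0631 and 2.32 CPM in SF1-IR, 0.0297 and 0.862 CPM in Hrb87F-IR and 2.64 and 0.0311 CPM in WT. As relatives of similar sequence, these genes may share reads, and how such reads were counted is not stated.

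S-Lap1, at 3L:8617235-8619474 on the plus strand (BDGP6.22), stood at 2.40 and 44.8 CPM in SF1-IR, 2.57 and 8.58 CPM in Hrb87F-IR and 46.7 and 2.02 CPM in WT. S-Lap2 begins 413 bases downstream on the same strand and stood at 1.04 and 18.3 CPM in SF1-IR, 0.534 and 5.13 CPM in Hrb87F-IR and 20 and 1.01 CPM in WT. Its exon bins overlap those of GAPsec, so its counts are uncertain. The gene loopin-1, whose product lies in the mitochondrial derivative of the sperm tail, stood at 1.94 and 36.1 CPM in SF1-IR, 1.63 and 9.90 CPM in Hrb87F-IR and 36.1 and 0.932 CPM in WT. S-Lap7 reached 25.8 CPM in SF1-IR replicate 2, 5.53 CPM in Hrb87F-IR replicate 2 and 27.6 CPM in WT replicate 1, and was below 1.3 CPM in the other libraries.

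The other marker genes completed the set used to name the module. The gene salto, which spans 2R:12302544-12306269 in 13 exon bins, stood at 1.23 and 35.1 CPM in SF1-IR, 1.48 and 10.9 CPM in Hrb87F-IR and 36.4 and 0.932 CPM in WT. Hsp60C, a mitochondrial chaperonin needed in spermatogenesis, stood at 0.899 and 21.0 CPM in SF1-IR, 0.415 and 4.68 CPM in Hrb87F-IR and 16.2 and 0.357 CPM in WT. Its relative Hsp60B, which acts in sperm individualization, stood at 0.726 and 9.35 CPM in SF1-IR, 0.267 and 1.26 CPM in Hrb87F-IR and 9.63 and 0.0932 CPM in WT. All 4 marker genes are members by the selection, so their levels describe the module and do not test its name.

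Components of the tail formed the next group. betaTub85D, the beta-tubulin of the male germline that builds the axoneme, stood at 0.394 and 18.9 CPM in SF1-IR, 0.415 and 4.598 CPM in Hrb87F-IR and 15.8 and 0.714 CPM in WT. The tubulin glycylase TTLL3B and Dnaaf6, named for the assembly of axonemal dyneins, reached 7.46 and 4.52 CPM in SF1-IR replicate 2 and 5.75 and 5.25 CPM in WT replicate 1. Don juan (dj), a protein of the sperm tail, stood at 0.489 and 11.2 CPM in SF1-IR, 0.326 and 1.11 CPM in Hrb87F-IR and 10.01 and 0.186 CPM in WT. For dj the difference between Hrb87F-IR replicates 2 and 1 was 0.96, below the median of the members.

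Mst84Da and Mst98Ca, male-specific transcripts whose products belong to the tail, reached 11.1 and 12.1 CPM in SF1-IR replicate 2, 2.97 and 2.33 CPM in Hrb87F-IR replicate 2, and 11.3 and 12.8 CPM in WT replicate 1, with at most 0.757 CPM in the other libraries. Mst84Da overlaps MstProx on the opposite strand, and whether strand was used in counting is not stated. MstProx had 6.08 CPM in SF1-IR replicate 2 by exon bins but 0.0318 CPM there by the deposited counts per gene, where Mst84Da had 6.64 CPM, so the exon-bin level of MstProx is uncertain. The gene ocn of the janus family, expressed in the testis, stood at 1.44 and 16.7 CPM in SF1-IR, 0.623 and 4.76 CPM in Hrb87F-IR and 22.8 and 0.124 CPM in WT, where the level in WT replicate 2 rested on 8 counts.

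The packaging of the sperm nucleus was represented by Mst77F, a histone-like protein that enters the chromatin as protamines do, and by mil, a nucleosome assembly protein family gene of the testis. Mst77F stood at 0.805 and 12.8 CPM in SF1-IR, 0.460 and 3.94 CPM in Hrb87F-IR and 15.2 and 0.466 CPM in WT. The gene mil reached 6.89 CPM in SF1-IR replicate 2 and 6.83 CPM in WT replicate 1, and its bins overlap those of CG5003.

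Control of mRNA in the germline was the role of 3 members. exu, which localizes mRNA in the oocyte and is also required for male fertility, stood at 1.96 and 31.2 CPM in SF1-IR, 0.712 and 10.9 CPM in Hrb87F-IR and 30.3 and 1.55 CPM in WT, with bins that overlap galla-1. The gene fest, which acts in the production of Cyclin B in spermatocytes, stood at 0.663 and 18.5 CPM in SF1-IR, 0.282 and 4.81 CPM in Hrb87F-IR and 17.0 and 0.668 CPM in WT. eIF4E3, a cap-binding protein of the testis, reached 4.85 CPM in SF1-IR replicate 2 and 3.87 CPM in WT replicate 1 and had 0 counts in WT replicate 2. Pen, an importin alpha that carries proteins into the nucleus, stood at 2.03 and 29.8 CPM in SF1-IR, 1.11 and 6.55 CPM in Hrb87F-IR and 25.1 and 1.29 CPM in WT.

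The member with the highest counts has no gene name beyond its number. CG4836 stood at 5.85 and 104.7 CPM in SF1-IR, 4.08 and 20.1 CPM in Hrb87F-IR and 87.3 and 3.49 CPM in WT, and alone gave 7.63% of the module's counts in SF1-IR replicate 2. It was the only member above 5 CPM in SF1-IR replicate 1. CG12699 reached 33.9 CPM in SF1-IR replicate 2, 10.2 CPM in Hrb87F-IR replicate 2 and 35.8 CPM in WT replicate 1. CG17376 stood at 1.09 and 26.4 CPM in SF1-IR, 0.668 and 6.59 CPM in Hrb87F-IR and 35.1 and 0.404 CPM in WT, the largest difference between WT replicates among the members at 5.30. Genes whose whole symbol is a CG or CR number made up 59 of the members, or 60.8%, against 33.7% of the other genes with a mean count of at least 50. Symbols with a prefix before the number, such as those of the 4 non-coding RNA members, were not counted on either side.

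Against the other genes, the members had shorter summed exon-bin lengths and slightly fewer exon bins (median 4 against 5). Their summed exon-bin length ran between 329 and 5407 bases with a median of 1481, against a median of 2097 bases for the other 9076 genes, and 15 members (15.5%) had a single exon bin, against 8.43% of the other genes. Per kilobase of exon bins, the order of the levels differed from that of the counts, since CG31226, with 389 bases, had 60.4 CPM per kb in WT replicate 1 and CG4836, with 4089 bases, had 21.3 CPM per kb there. The members comprised 92 protein-coding genes and 4 non-coding RNAs, and the identifier named Pen in the deposited table had no entry in the annotation used here.

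The members were spread over the large chromosomes, with 25 on 2L, 20 on 2R, 15 on 3L, 31 on 3R and 6 on X. The X chromosome held 6.19% of the members, against 16.0% of the other genes. Chromosomes 4 and Y held 0 members, but also only 85 and 1 of the other genes that reached the mean count. Of the 6 members on X, 3 were the non-coding RNAs CR32658, CR32652 and CR32661. Neighbouring members under 2000 bases apart formed 9 pairs with 17 genes, 7 of the pairs on the same strand. Among them were S-Lap1 with S-Lap2, CG17376 with CG17377, CG12861 with CG12860, and a run of CG18449, CG2127 and CG8701 on 2R.

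The relative levels of the members were alike in the 2 high libraries. SF1-IR replicate 2 minus WT replicate 1 had a median of -0.03 (SD 0.23 over 97 genes), and 94 members lay within 0.5 of equality, while all 9173 genes had a median of 0.26 (SD 0.56) and 66.8% of them lay within 0.5. SF1-IR replicate 2 was the higher of the pair for 41 members, against 72.5% of all genes. Both libraries were used by the selection, so these values are a description. The widest departures were ymp, with 7.82 CPM in SF1-IR replicate 2 and 14.3 CPM in WT replicate 1, and hydra, with 7.36 and 4.45 CPM. Across the 97 genes, log2 levels of SF1-IR replicate 2 and WT replicate 1 had a Pearson's r of 0.97 and a Spearman's rho of 0.95. Genes are not independent replicates, and the points share transcript length and the selection on both libraries.

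**Figure D3:**
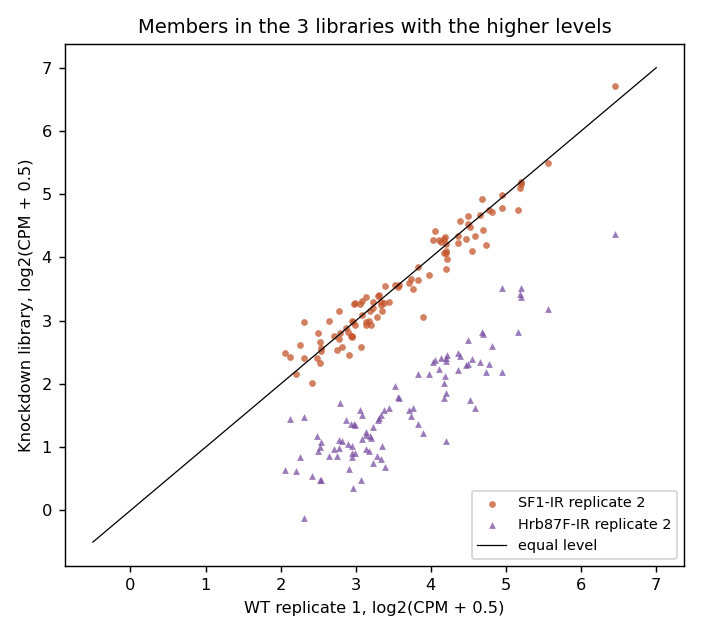
Each member is plotted at its level in WT replicate 1 (x axis) against its level in SF1-IR replicate 2 (circles) or Hrb87F-IR replicate 2 (triangles), all as log2(CPM + 0.5), with a line of equal level. The circles lie along the line, with a median difference of -0.03, and all 97 triangles lie below it.

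The selection did not use the difference between the Hrb87F-IR libraries, except that their counts entered the mean. All 97 members were higher in Hrb87F-IR replicate 2 than in replicate 1, against 66.2% of the 9173 genes. The difference had a median of 1.72 (SD 0.56, 0.55 to 3.23), against 0.09 over all genes. It was 1 or more for 85 members, against 5.06% of all genes, and 2 or more for 36 members, against 0.796% of all genes. With 1 library on each side this difference has no replicate check and was not tested. Each of the 97 members stood higher in Hrb87F-IR replicate 2 than in the 3 low libraries and lower than in the 2 high ones, an order found in 6.53% of the 9173 genes, though the selection itself had set 4 of these 5 libraries high or low.

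The size of the step varied between genes. It was largest for exu, at 3.23, CG42688, at 2.95, and fest, at 2.76, and smallest for CG2267, at 0.70, CG10317, at 0.64, and Theg, named after a gene of mouse spermatids, at 0.55. Theg stood at 1.05 and 1.77 CPM in Hrb87F-IR, above its 0.126 CPM in SF1-IR replicate 1 and 0.0466 CPM in WT replicate 2. Log2 levels in Hrb87F-IR replicate 2 had an r of 0.91 with SF1-IR replicate 2 and of 0.88 with WT replicate 1 over the 97 genes, and the members lay a median of 1.90 (SD 0.37) below SF1-IR replicate 2.

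**Figure D4:**
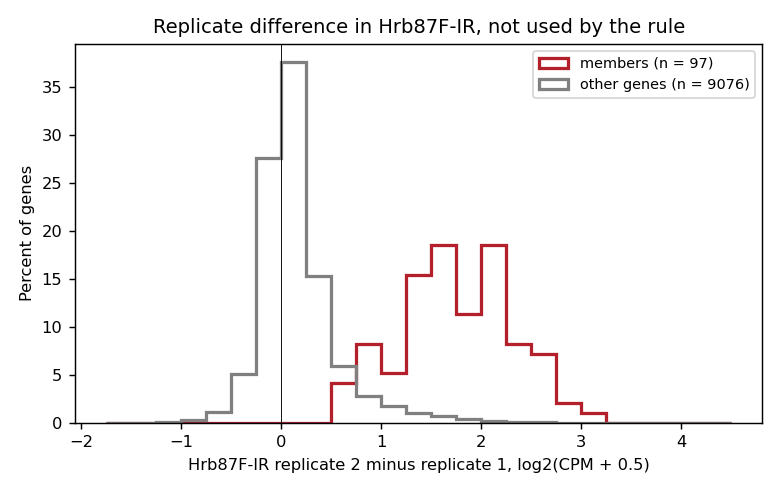
The x axis gives Hrb87F-IR replicate 2 minus replicate 1 as log2(CPM + 0.5) and the y axis the percent of genes in each bin, for the members (red) and the other genes (grey). All 97 members lie above 0, with a median of 1.72, while the other genes centre on 0.09.

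Other genes of spermatogenesis, taken from lists of late and early germline functions, were then read in the same libraries. The lists held 121 measured genes, of which 15 were members and 106 were not, and 60 of these non-members had a mean count under 50. Of the 46 others with a mean count of at least 50, 41 were higher in both WT replicate 1 and SF1-IR replicate 2 than in the other replicate of their genotype, and 40 of these were also higher in Hrb87F-IR replicate 2. Over all 9173 genes the shares were 36.2% and 26.5%. These counts share the contrasts of the selection, and some of the 46 reached the mean count only through the libraries where they were high, so they are a description.

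The lists for late steps followed the module in most of their genes. The non-member genes of sperm chromatin, such as the transition protein gene Tpl94D and the protamine-like Prtl99C, summed to 0.789 and 13.2 CPM in SF1-IR, 0.890 and 5.13 CPM in Hrb87F-IR and 12.9 and 0.621 CPM in WT. Of the 9 measured sperm chromatin genes, 8 had the order of the module in all 3 genotypes, as did 8 of the 9 axoneme genes. A mean count of 50 was reached by 4 of these sperm chromatin genes and 7 of these axoneme genes. The non-member genes of the mitochondria of spermatids, such as the fusion protein gene fzo and copies of respiratory chain subunits, summed to 4.69 and 41.7 CPM in SF1-IR, 2.997 and 11.1 CPM in Hrb87F-IR and 39.4 and 3.18 CPM in WT. All 21 measured genes of that list, the 2 members included, were higher in the 3 libraries with the higher module levels than in the other replicate of the same genotype. The same held for the 12 measured genes of the sperm tail list, 4 of them members.

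Testis-specific proteasome subunits, none of which was a member, summed to 0.994 and 12.7 CPM in SF1-IR, 0.727 and 4.43 CPM in Hrb87F-IR and 10.3 and 0.870 CPM in WT. Of the 13 measured, 12 followed the order of the module in all 3 genotypes. The 12 Y-linked genes, which are transcribed in spermatocytes, summed to 0.442 and 4.56 CPM in SF1-IR, 0.134 and 1.11 CPM in Hrb87F-IR and 4.89 and 0.0466 CPM in WT, the last of these being 3 counts. Of these 12 genes, 10 had the order in SF1-IR and WT, and 6 had it in all 3 genotypes. Only 2 of the 13 proteasome genes and 0 of the 12 Y-linked genes reached a mean count of 50. Their orders rest on few counts, and the shares over the better counted genes are not matched to them. The comet and cup genes, which are transcribed after meiosis, were all higher in SF1-IR replicate 2 and WT replicate 1 than in the other replicate. They summed to 29.1 and 53.9 CPM in SF1-IR, 27.8 and 33.3 CPM in Hrb87F-IR and 46.8 and 20.5 CPM in WT, most of it m-cup, which stood between 18.9 and 34.5 CPM in every library.

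Early germline, meiotic arrest and somatic testis genes showed the order in part or hardly at all. The 10 measured early germline genes, such as bam and aub, summed to 6.31 and 6.544 CPM in SF1-IR, 5.47 and 7.37 CPM in Hrb87F-IR and 3.55 and 4.27 CPM in WT, and 4 of them had the order of the module in all 3 genotypes. The 12 genes of the meiotic arrest complexes, which switch on spermatocyte transcription, summed to 6.36 and 7.75 CPM in SF1-IR, 4.29 and 6.97 CPM in Hrb87F-IR and 10.4 and 4.36 CPM in WT, and 7 of them had that order. The 4 somatic genes, tj, upd1, eya and Sox100B, summed to between 2.82 and 4.315 CPM in every library, and 1 of them had that order. Only 3 early germline, 3 meiotic arrest and 1 somatic gene reached a mean count of 50, so these sums rest on few genes. Most of the meiotic arrest sum was achi, at 2.18 to 3.59 CPM, and mia, at 1.06 to 2.03 CPM. Most of the somatic sum was eya, at 2.32 to 3.23 CPM. The meiotic regulator bol stood between 175.5 and 298.3 CPM in every library without that order, while the meiotic phosphatase gene twe stood at 0.126 and 1.45 CPM in SF1-IR, 0.252 and 0.934 CPM in Hrb87F-IR and 2.46 and 0.186 CPM in WT.

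**Figure D5:**
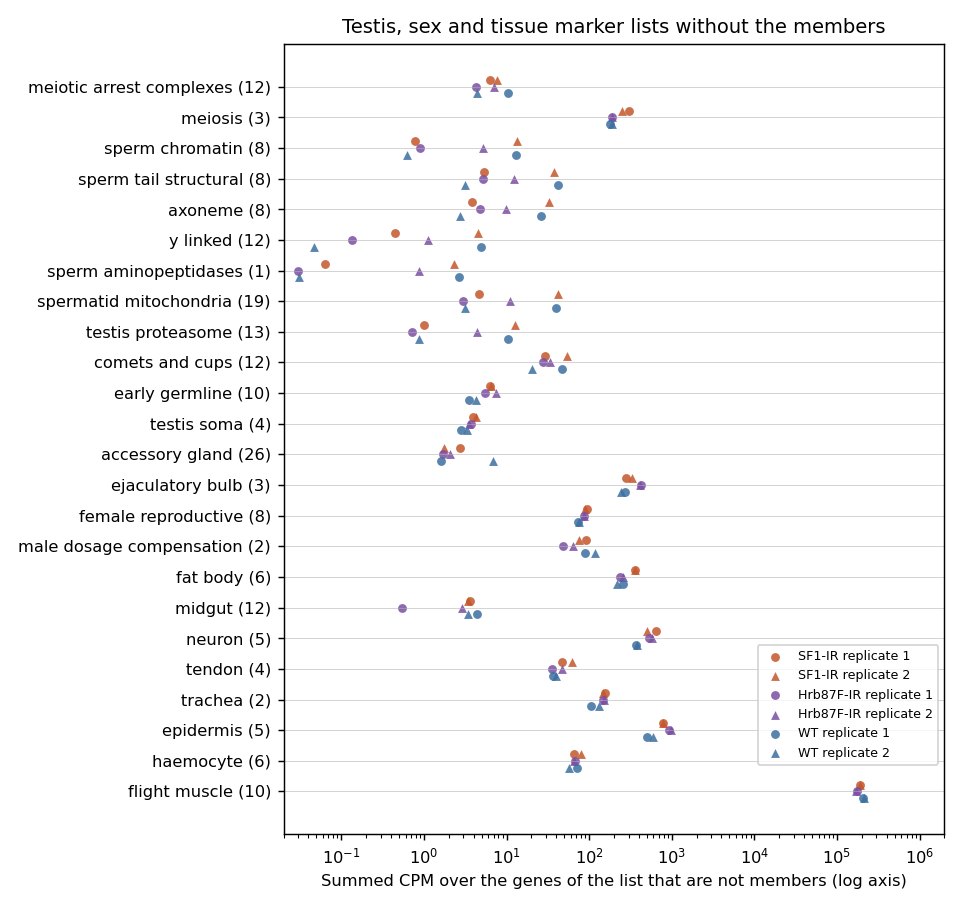
Each row is a list of genes with the number of its measured genes that are not members in brackets, and points give their summed CPM on a log axis in SF1-IR (orange), Hrb87F-IR (purple) and WT (blue), with circles for replicate 1 and triangles for replicate 2. The rows for sperm chromatin, sperm tail, axoneme, spermatid mitochondria and testis proteasome spread as the module does, whereas flight muscle, fat body, neuron and testis soma rows stay close together.

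Markers of other male organs and of other tissues did not follow the module. The 26 accessory gland genes summed to 2.73 and 1.75 CPM in SF1-IR, 1.69 and 2.05 CPM in Hrb87F-IR and 1.62 and 6.83 CPM in WT, and 0 of them had the order of the module. None of them reached a mean count of 50, so their sums rest on few counts and could show little of such an order. The RNAs roX1 and roX2, which male cells make for dosage compensation, summed to 92.1 and 75.04 CPM in SF1-IR, 48.7 and 63.8 CPM in Hrb87F-IR and 88.4 and 118.8 CPM in WT, with the highest value in the WT library where the module was lowest. The sums for ejaculatory bulb, female reproductive tract, fat body, neuron, tendon, trachea, epidermis and haemocyte genes differed between the replicates of a genotype by at most 1.34-fold, the largest step being that of tendon genes in Hrb87F-IR. The ejaculatory bulb sum was EbpIII alone, with Ebp and EbpII at 0 counts in every library, and the female sum was almost all grk, at 72.1 to 91.9 CPM, so each of these sums rests on 1 gene. The 12 midgut genes summed to 0.549 and 2.90 CPM in Hrb87F-IR but to between 3.39 and 4.36 CPM in the other libraries. Whether testis tissue was taken along with the muscle, or male flies contributed unequally, was not tested.

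The selection required a wide gap between the replicates of SF1-IR and of WT, so a test against that spread could hardly call a member, and its counts are a description. Between genotypes, 0 of the 97 members passed the edgeR quasi-likelihood test in any comparison of exon-bin counts at a Benjamini-Hochberg adjusted p under 0.01. SF1-IR against WT called 2.68% of 11753 genes and the members had a median log2 fold change of -0.33, against -0.02 for all genes. Hrb87F-IR against WT called 0.0596% of genes, and the members had a median of -2.12, against -0.03, with all 97 negative. SF1-IR against Hrb87F-IR called 2.13% of genes and the members had a median of 1.89, against 0.04, with all 97 positive. At an unadjusted p under 0.05 the count of members was also 0 in each comparison, where 19.6%, 15.2% and 19.2% of genes passed, and DESeq2 called 0 members where it called 8.98%, 4.66% and 8.43% of genes.

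The standard errors of the members restate the replicate gaps that chose them. S-Lap1 had a log2 fold change of -0.36 (SE 1.97, edgeR adjusted p = 0.997) in SF1-IR against WT and of -2.29 (SE 2.08, adjusted p = 0.706) in Hrb87F-IR against WT. Of the non-members in the testis lists, 96 were tested and 0 were called in either direction in any of the 3 comparisons by edgeR. Over all genes 2.68%, 0.0596% and 2.13% were called. At an unadjusted p under 0.05 there were 1, 1 and 2 of the 96, against 19.6%, 15.2% and 19.2% of all genes. Many of the 96 shared the replicate order of the members, so these counts are a description.

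The members' median turned with the libraries in the fit, which the selection had fixed in advance. The selection had set SF1-IR replicate 2 and WT replicate 1 high and the other replicate of each genotype low. The values without these libraries are therefore a description. SF1-IR against WT gave a member median of -3.94 without SF1-IR replicate 2 and of 3.92 without WT replicate 1. Hrb87F-IR against WT gave 2.05 without WT replicate 1, above WT in place of below. When both WT replicate 1 and SF1-IR replicate 2 were left out, a choice made after the data had been seen, edgeR called 2 members in Hrb87F-IR against WT, both higher in Hrb87F-IR, where 3.6% of genes were called.

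The deposited counts per gene gave other WT values. In that table the members summed to 53.8 and 1192 CPM in SF1-IR, 44.0 and 276.2 CPM in Hrb87F-IR and 1081.5 and 1709 CPM in WT, so both WT columns were high and the knockdown columns were close to their exon-bin values. By these counts the WT libraries totalled 70664995 and 112295405, against 29644449 to 31484532 for the knockdown libraries, so both WT columns were deeper. The WT columns of the 2 tables do not match, and which is right was not determined. For 17 members, among them dj, w-cup and Mst33A, the gene-count level in WT replicate 1 was over 3 times lower than its exon-bin level.

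By these counts both Hrb87F-IR libraries stood below both WT libraries for 83 of the 97 members, against 22.7% of the 8770 genes with a mean count of at least 50. edgeR called 0 of the 96 members tested in Hrb87F-IR against WT, where 6.19% of 10764 genes were called, and 24 members had an unadjusted p under 0.05, against 40.7% of genes. The members' median log2 fold change was -3.61, against -0.10 for all genes, and 93 of the 96 were negative. DESeq2 called 19 members, all lower in Hrb87F-IR, where it called 25.1% of genes. The members had been chosen for a high exon-bin level in the library labelled WT replicate 1, so these values are a description.

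S-Lap1 stood at 2.43 and 8.42 CPM in Hrb87F-IR and 52.3 and 81.7 CPM in WT by these counts, a log2 fold change of -4.12 (SE 1.45, edgeR adjusted p = 0.0975). Hsp60C stood at 0.472 and 4.64 CPM in Hrb87F-IR and 20.04 and 39.3 CPM in WT, a log2 fold change of -4.04 (SE 1.64, edgeR adjusted p = 0.129). loopin-1 and salto had log2 fold changes of -3.78 (SE 1.496, edgeR adjusted p = 0.123) and -2.79 (SE 1.59, edgeR adjusted p = 0.237). The WT libraries lay above both Hrb87F-IR libraries for all 4 genes, yet none passed the threshold.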

How the data were processed

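Poly A-selected mRNA of dissected IFM was sequenced in 6 libraries, 2 each of SF1-IR, Hrb87F-IR and WT. The authors mapped reads with STAR 2.7.3a to BDGP6.22, indexed them with SAMtools 1.1, counted them with featureCounts (Subread 2.0.0) and deposited raw counts per gene and per exon bin. Exon bin positions and lengths came from a deposited comparison table. The fold changes and p-values in the authors' DESeq2 1.32.0 and DEXSeq tables were not used, and 8 other per-sample columns in them were left out.

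Counts of 77774 exon bins were summed for 16428 genes. Symbols for 16335 of these came from a reference table. Groups followed the sample titles. Genes were tested with edgeR 4.0.16 (glmQLFit with robust fitting, glmQLFTest, TMM, filterByExpr) with all libraries in one fit, at a Benjamini-Hochberg adjusted p under 0.01, after the method was tested on simulated data. DESeq2 1.42.0 was an alternative. Other software was matplotlib 3.10.9, scipy 1.17.1, pandas 2.3.3 and numpy 2.4.6 in Python 3.11.15, with R 4.3.3.

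Members and lists were chosen with earlier results of these data known. Named genes were the 4 markers, members in a list, the 10 members with the highest mean CPM, the 3 members and 3 non-members nearest the threshold, and list genes where a list moved with the module. Members named for a known role, a position or an extreme value were chosen after their values were seen. No sequences are shown, since none were in the sources used here.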

Additional observations from a re-analysis of the deposited data

How the results depend on the processing

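The number of members depended on the selection. It was 37 with a pseudocount of 1, 326 with 0.1, 335 at a difference of 2, 7 at 4, 52 for single exon bins (an alternative added after the data had been seen) and 0 in the counts per gene. The median Hrb87F-IR difference was 1.29 with a pseudocount of 1 and 2.52 with 0.1.

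Counts of called genes moved more than counts of called members, which the replicate gaps required by the selection kept low. In SF1-IR against WT (315 genes), Hrb87F-IR against WT (7) and SF1-IR against Hrb87F-IR (250), DESeq2 called 1056, 548 and 991, and no filter gave 483, 81 and 402. With only the groups compared, SF1-IR against WT gave 30 and Hrb87F-IR against WT gave 0. Counts per gene gave 927, 666 and 0. Leaving out 1 library gave 39 to 149, 0 to 7 and 18 to 261. Without both WT replicate 1 and SF1-IR replicate 2, also added after the data had been seen, 664, 422 and 755 genes were called, with 2 members in Hrb87F-IR against WT. In the counts per gene, Hrb87F-IR against WT (666) gave 2703 by DESeq2, with 19 members, and 0 to 2167 without 1 library. The causes were not tested.

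Whether the replicate numbers pair the libraries is not stated. Over all 11753 tested genes, deviations from the group means had an r of -0.75 for SF1-IR and WT. It was -0.51 for Hrb87F-IR and WT and 0.43 for SF1-IR and Hrb87F-IR. Without the members, whose opposite signs in SF1-IR and WT were set by the selection, the values were -0.69, -0.43 and 0.34. The replicate block gave 45, 0 and 59 genes, and 414 in the counts per gene, with 0 members called in each. With the WT numbers crossed, added after the data had been seen, the replicate block gave 823 and 277 of 11753 genes. Of the 97 members, 8 were called in the second, lower in Hrb87F-IR. Crossing sets WT replicate 1 beside SF1-IR replicate 2, as the selection did, so the block takes up the gap that chose the members. These calls are a description. With 2 libraries a group, leaving out 1 leaves an arm whose spread is taken from the other groups.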
